A study of Mus musculus with 20 samples.

Results

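The genes described here were lower in mouse epidermis at embryonic day 9 (E9) than in every E13 epidermal library, both with p63 and in its knockout. They are 27 of 23432 gene symbols counted in each library, chosen by their measured levels. A gene was kept where its lowest level over the 6 E13 epidermal libraries was at least 20 CPM (counts per 1000000 counts assigned to genes in that library) and at least 4 times its highest E9 level. That left 45 genes, and 18 of them were dropped by name because they belong to keratin, collagen, laminin, integrin, connexin, Iroquois, Wnt, potassium channel, glutamate receptor or serpin B families or to a short list of named genes. The E9 and E13 levels are therefore a description, and no test was made of E13 against E9. The rule sets no upper limit on the E9 level, which for Svil was 149, 114 and 151 CPM. The 27 genes group by known role into 4 transcriptional regulators, 5 secreted or matrix proteins, 6 adhesion molecules and receptors, 5 channel and nervous system genes, 5 cytoskeletal or membrane proteins and 2 metabolic enzymes.

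RNA was measured by sequencing in 12 libraries in 4 groups of 3. All embryos carried a delta-Np63-GFP knock-in allele, so the controls are heterozygous (KI-Het, written Het) and no group without the allele was analysed here. Epidermis came from Het embryos at E9 and E13 and from knockout embryos (KI-KO, written KO) at E13, and dermis from Het embryos at E13. Cells came from dissociated back skin, with epidermal cells sorted for GFP and dermal cells for CD140a, so that the epidermal sort reads the promoter of the allele itself. Whether the libraries of a group are separate animals is not in the labels, so a p-value here speaks of the spread among these libraries, which may be technical. An epidermal library held 3373819 to 7777808 gene counts and a dermal one 16931664 to 33386872. Trp63, the targeted gene, stood at 582, 636 and 477 CPM in E13 Het, 24.9, 27.4 and 23.4 CPM in KO, 303, 228 and 128 CPM in E9 and 0.405, 0 and 1.80 CPM in dermal libraries. Its counts pool all isoforms, so KO cells are described as cells with this low Trp63 level and not as cells without any transcript of the gene. The 12 basal epidermal markers summed to between 5296 and 6356 CPM in E13 Het and between 713 and 911 CPM in KO. The 23 dermal markers summed to between 454 and 761 CPM at E9, 1216 and 2425 CPM in E13 Het, 2062 and 3554 CPM in KO and 26369 and 44746 CPM in dermis, the E13 groups having none of the 23 at 0 in all 3 libraries.

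The transcription factor p63 is a relative of p53 that is needed for stratified epithelia. Its delta-N form marks the surface ectoderm as this commits to epidermis, and in its absence the skin stays a thin sheet that keeps simple-epithelium keratins. Between E9 and E13 the surface ectoderm becomes an early epidermis with a basal layer and a covering periderm, and many genes of later skin first appear. The genes below were present at E13 also where little p63 transcript was left.

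The stretches of sequence before the transcription starts are shown first for 5 of the genes, because the genes rise over the same days and were chosen for that. RefSeq (GRCm38.p6) promoter windows matched 20 of the 27 genes, with 28 windows in all because some genes have several starts, and windows of Ptrf, Lphn3, Ltbp4 and Rgmb overlap others of the same gene. Each line below gives the 250 bases before a start, 5′ to 3′ on the gene's strand. Capitals mark matches, on either strand, to a TATA box (TATAAA), an AP-1 site (TGANTCA), an AP-2 site (GCCNNNGGC), an NFI half-site (TTGGCA) or a GC box (GGGCGG). Bcl11a lies on the plus strand (window chr11:24080445-24080694), Cpt1a on the plus strand (chr19:3323051-3323300), Dbc1 on the minus strand (chr4:68954398-68954647), Anxa1 on the minus strand (chr19:20390672-20390921) and Gabrp on the minus strand (chr11:33578958-33579207).
Bcl11a: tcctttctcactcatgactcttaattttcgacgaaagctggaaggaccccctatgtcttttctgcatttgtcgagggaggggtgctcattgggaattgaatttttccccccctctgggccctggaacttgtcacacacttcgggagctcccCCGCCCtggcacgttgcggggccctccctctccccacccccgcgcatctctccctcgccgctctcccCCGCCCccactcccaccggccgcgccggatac
Cpt1a: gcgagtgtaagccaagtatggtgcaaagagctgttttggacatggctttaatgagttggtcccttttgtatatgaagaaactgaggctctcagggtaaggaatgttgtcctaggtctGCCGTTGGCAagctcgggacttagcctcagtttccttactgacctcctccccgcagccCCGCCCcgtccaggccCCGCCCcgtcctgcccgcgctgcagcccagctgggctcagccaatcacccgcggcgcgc
Dbc1: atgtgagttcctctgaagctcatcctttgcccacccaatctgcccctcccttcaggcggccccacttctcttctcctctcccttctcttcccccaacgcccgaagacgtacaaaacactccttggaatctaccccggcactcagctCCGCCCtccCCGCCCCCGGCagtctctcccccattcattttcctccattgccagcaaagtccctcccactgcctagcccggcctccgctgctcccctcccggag
Anxa1: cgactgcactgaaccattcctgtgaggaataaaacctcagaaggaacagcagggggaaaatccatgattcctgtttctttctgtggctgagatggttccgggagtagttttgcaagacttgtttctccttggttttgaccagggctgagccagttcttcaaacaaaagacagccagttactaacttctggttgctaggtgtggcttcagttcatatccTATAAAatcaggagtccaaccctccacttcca
Gabrp: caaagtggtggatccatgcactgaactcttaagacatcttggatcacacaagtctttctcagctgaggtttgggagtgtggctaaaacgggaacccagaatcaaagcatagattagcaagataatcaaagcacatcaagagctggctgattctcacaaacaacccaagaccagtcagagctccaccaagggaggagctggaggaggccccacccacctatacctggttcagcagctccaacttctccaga
The Bcl11a window holds 2 GC boxes, which the capitals show as CCGCCC because they read on the other strand. In the Cpt1a window an AP-2 match and an NFI half-site overlap, and 2 GC boxes follow them. The Dbc1 window has 2 GC boxes, the second overlapping an AP-2 match. Anxa1 has a TATA box that begins 32 bases before the start and none of the other marked motifs. The Gabrp window has no match to any of the marked motifs.

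Over the 28 windows, GC boxes occurred in 18 (64.3%), from 12 of the 20 genes, against 32.7% of all 32841 windows of the same length in the table. The AP-2 letters occurred in 8 (28.6%, against 13.7%), from 5 genes, and the NFI half-site in 7 (25%, against 12.3%), from 6 genes. Overlapping windows of Ltbp4 and Ptrf count some of the same AP-2 and GC box sites again. Those of Lphn3 count the same GC box again, and those of Ptrf the same NFI half-site. TATAAA was present in 4 (14.3%, against 12.4%), in Anxa1, Lphn3 and Rgmb, with 1 Rgmb site counted in both of its overlapping windows, and TGANTCA in 0 (against 6.75%). The E-box (CANNTG) was in 15 (53.6%, against 66.2%), the TEAD letters (GGAATG) in 4 (14.3%, against 12.6%) and the CRE (TGACGTCA) in 1 (3.57%, against 1.55%), in Btg2. The windows of the chosen genes were richer in G and C, with a median of 62.6% against 52.4%, and in CpG pairs, with a median of 15.5 against 6. These shares are a description without a test, and the share of a GC-rich motif moves with base composition.

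All 27 genes are protein-coding and lie on 14 chromosomes, with 4 on chromosome 4 (Adamtsl1, Astn2, Dbc1 and Nfib), 4 on chromosome 11 and 3 on chromosome 19. Their median span was 34581 bases, against 18238 bases over 18963 protein-coding genes of the files. Astn2, Bhlhe40, Ltbp3, Pcdh10 and Ppfia3 each overlap another counted gene. Since no source used here gives the strand setting of the counts, theirs may include reads of the overlapping gene. The ratio of the lowest E13 to the highest E9 level ran from 4.01 (Pvrl4) to 27.9 (Pcdh10), with a median of 6.40. Just inside the ratio limit were Pvrl4, Rhbdl3 (4.15) and Lphn3 (4.16), and just outside were Smoc2 (3.95), Fosl2 (3.87) and Flrt1 (3.83). At the floor of 20 CPM, Rhbdl3 (20.2 CPM), Bhlhe40 (20.8 CPM) and Btg2 (21.3 CPM) were kept, while Tmem176b (19.7 CPM), Cyp2w1 (18.3 CPM) and Cers3 (17.2 CPM) were not.

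**Figure D1:**
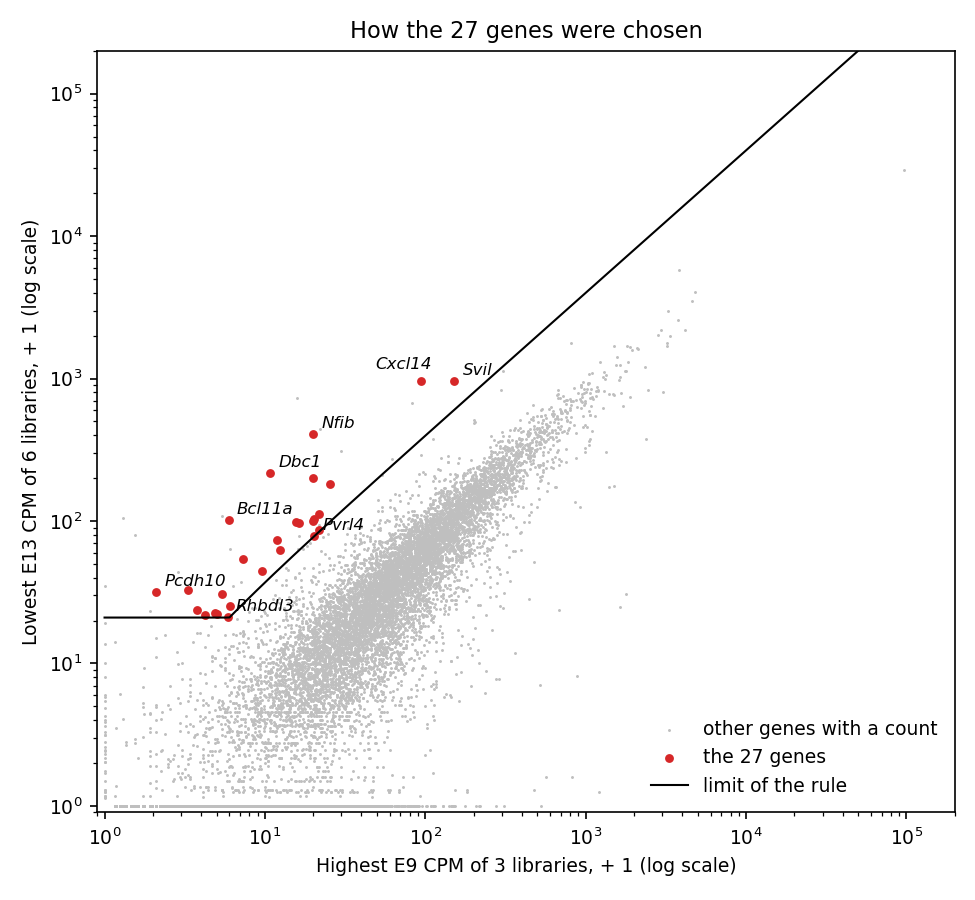
Highest CPM of the 3 E9 libraries (x axis) against lowest CPM of the 6 E13 epidermal libraries (y axis), both plus 1 on log scales, 1 point per gene. The 27 genes (red) sit above the line of the rule, from Pvrl4 at a ratio of 4.01 to Pcdh10 at 27.9, and grey points above the line are genes dropped by name.

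As a sum, the 27 genes took 367 to 378 CPM at E9, 5723 to 7144 CPM in E13 Het, 6210 to 8083 CPM in KO and 1144 to 2184 CPM in dermis. In bulk RNA, fewer cells of a type and less RNA per cell cannot be told apart. The mean over E13 Het libraries was between 8.74 and 259 times the E9 mean (median 15.2), and the mean over KO libraries between 7.66 and 144 times (median 16.01). CPM are not divided by gene length, so levels below are compared between libraries and not between genes. Values are given for replicates 1, 2 and 4 at E9 and for replicates 1, 2 and 3 elsewhere, in that order.

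**Figure D2:**
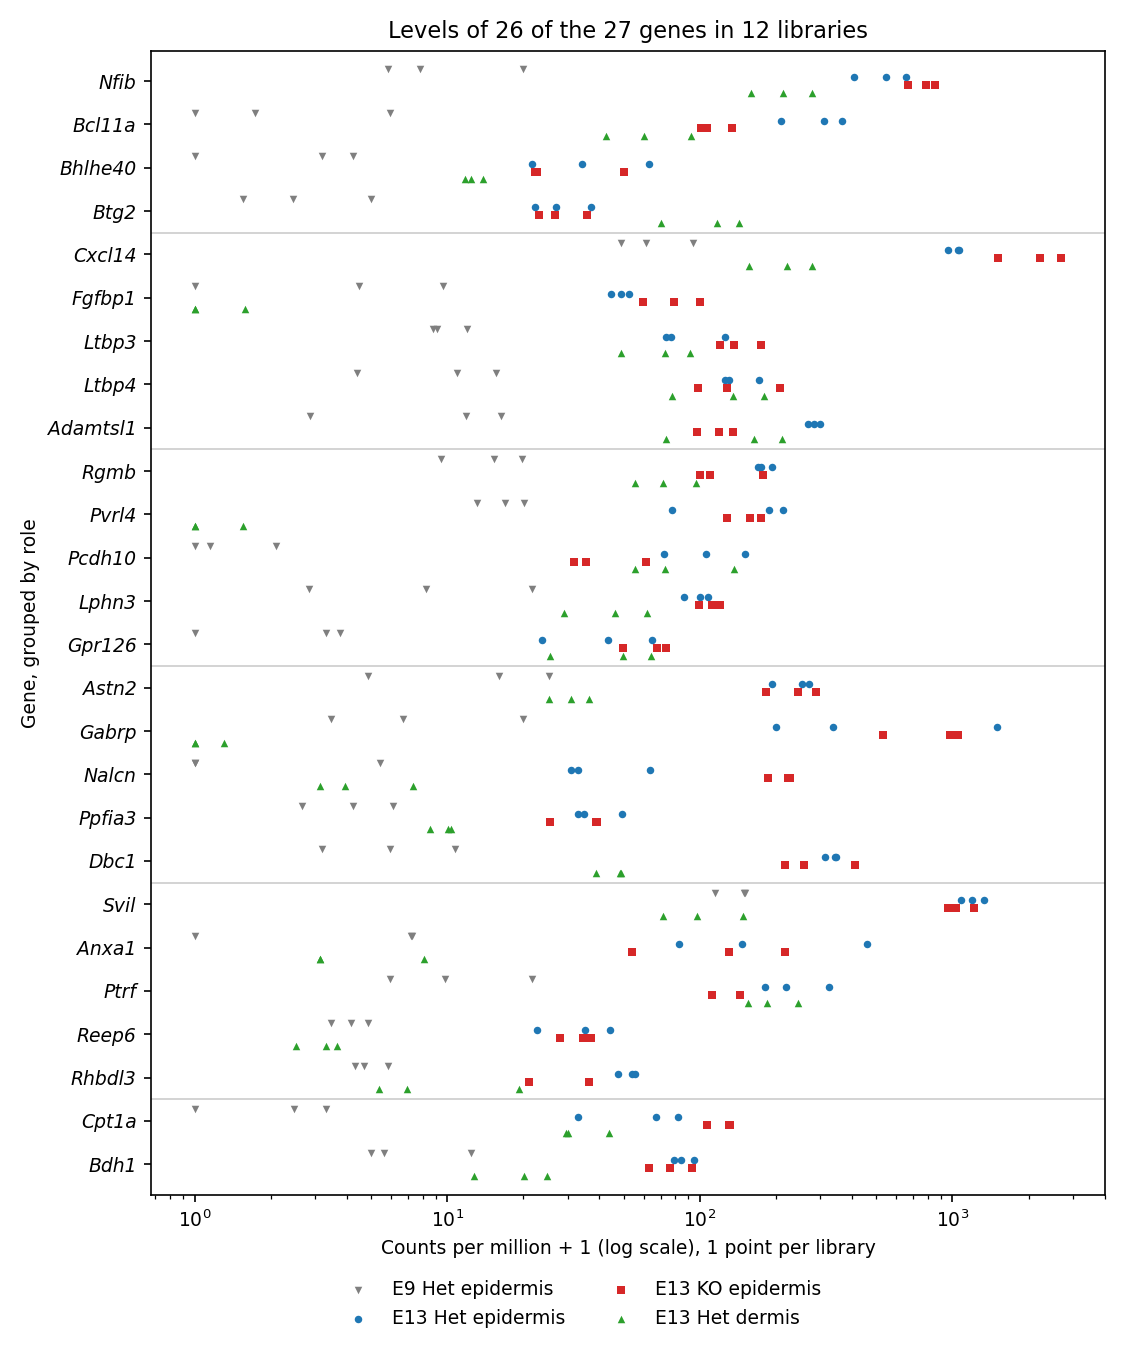
CPM plus 1 on a log scale (x axis) of 26 of the 27 genes (y axis, grouped by role) in the 12 libraries, 1 point per library. Every E13 epidermal point of a gene lies right of its E9 points, as the rule requires, while the dermal points run from 0 CPM (Gabrp, Pvrl4, Fgfbp1) to above the epidermal ones (Btg2).

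Among the transcriptional regulators, Nfib encodes a nuclear factor I protein (chromosome 4, 82290173 to 82506751). Its level was 18.98, 6.81 and 4.86 CPM at E9, 547, 657 and 405 CPM in E13 Het, 667, 854 and 787 CPM in KO and 278, 159 and 212 CPM in dermis. All 3 KO libraries were above all 3 Het libraries, the nearest pair being close together. Bcl11a, a zinc finger repressor gene best known for silencing fetal globin (chromosome 11, 24076564 to 24173558), stood at 4.94, 0.736 and 0 CPM at E9, 365, 308 and 208 CPM in E13 Het and 100.3, 133 and 106 CPM in KO. Each KO library was below each Het library, and each was also above the dermal level of 91.4, 41.5 and 59.04 CPM. Bhlhe40, which encodes a repressor of the clock and hypoxia responses (chromosome 6, 108660629 to 108666925), had 3.24, 2.21 and 0 CPM at E9, 61.98, 33.04 and 20.8 CPM in Het and 49.2, 21.3 and 21.6 CPM in KO. Replicate 1 was the highest in both E13 epidermal groups, and the groups overlapped. Btg2, an antiproliferative gene and p53 target (chromosome 1, 134074865 to 134079155), had 4.01, 0.552 and 1.46 CPM at E9, 21.3, 25.97 and 35.97 CPM in Het and 22.1, 25.7 and 34.7 CPM in KO, almost the same range in both. In dermis it was higher than in any epidermal library, at 116, 69.04 and 143 CPM. Btg2 is also in a list of 28 dissociation stress and immediate early genes, whose sum was 560.4 to 644 CPM at E9, 1055 to 2439 CPM in Het, 1217 to 2124 CPM in KO and 3039 to 5025 CPM in dermis. The part of that response in the Btg2 levels was not tested.

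Among the secreted and matrix genes, Cxcl14 encodes a chemokine of epithelia (chromosome 13, 56288643 to 56296811). It stood at 60.3, 93.1 and 47.6 CPM at E9, 1059, 1049.9 and 956 CPM in E13 Het, 2215, 1515 and 2698 CPM in KO and 277, 156 and 220.03 CPM in dermis. The Het libraries lay close together and every KO library was above them. Fgfbp1, whose product frees fibroblast growth factors from the matrix (chromosome 5, 43978858 to 43981828), had 8.64, 3.50 and 0 CPM at E9, 51.4, 47.96 and 43.5 CPM in Het and 99.3, 58.6 and 78.2 CPM in KO. The KO libraries were again all higher. In dermis Fgfbp1 had 0, 0.591 and 0 CPM, from 10 counts in all. Ltbp3 and Ltbp4 encode latent TGF-beta binding proteins, which tether the inactive growth factor to the matrix. Ltbp3 (chromosome 19, 5740900 to 5758536) had 10.96, 8.10 and 7.77 CPM at E9, 125, 72.4 and 76.2 CPM in Het and 136, 119 and 174 CPM in KO. Ltbp4 (chromosome 7, 27305140 to 27339720) had 3.395, 14.5 and 9.95 CPM at E9, 169.8, 129.99 and 125 CPM in Het and 207, 97.6 and 127 CPM in KO. Both genes overlapped between Het and KO and also between Het and dermis, where they stood at 90.8, 47.8 and 71.5 CPM and 179, 76.4 and 134 CPM. Adamtsl1, a secreted relative of the ADAMTS proteases that lacks their catalytic domain (chromosome 4, 85513852 to 86428390), had 1.85, 10.9 and 15.3 CPM at E9, 283, 297 and 266 CPM in Het and 118, 134 and 96.03 CPM in KO. The Het libraries formed a tight group above every KO library. Dermal libraries spread widely for this gene, at 211, 72.5 and 163 CPM, all below Het.

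Of the adhesion molecules, Pvrl4 encodes nectin-4, a junction protein whose mutation causes an ectodermal dysplasia in people (chromosome 1, 171370173 to 171388287). Its level was 15.9, 12.1 and 19.2 CPM at E9, 212, 76.9 and 187 CPM in E13 Het and 174, 127 and 156 CPM in KO, with Het replicate 2 the lowest E13 library. It was nearly without counts in dermis, with 11 in all 3 libraries. Pcdh10, a delta-protocadherin gene (chromosome 3, 45378398 to 45434579), had only 7 counts in all at E9 (0.154, 1.10 and 0 CPM). At E13 it stood at 150.03, 105 and 71.2 CPM in Het and 34.5, 60.5 and 30.8 CPM in KO, every KO library being the lower. The dermal values of 135, 54.4 and 71.9 CPM overlapped those of Het epidermis. A count of 0, as in E9 replicate 4, allows a level of up to 0.728 CPM there, counting error only.

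The receptor genes of this set are Rgmb, Lphn3 and Gpr126. Rgmb encodes a membrane-anchored BMP co-receptor (chromosome 17, 15804661 to 15831246) and stood at 18.8, 14.4 and 8.50 CPM at E9, 192, 174 and 168 CPM in Het and 99.3, 108 and 176 CPM in KO. KO replicate 3 lay within the Het range and the others below it. Lphn3 (chromosome 5, 81019085 to 81827825) and Gpr126 (chromosome 10, 14402583 to 14545723) encode adhesion G protein-coupled receptors, the second known for its role in Schwann cell myelination. Lphn3 had 7.25, 1.84 and 20.6 CPM at E9, 85.8, 107 and 98.8 CPM in Het, 111, 119 and 98.4 CPM in KO and 61.04, 27.99 and 45.3 CPM in dermis. Gpr126 had 2.31, 2.76 and 0 CPM at E9, 63.5, 22.6 and 42.4 CPM in Het, 48.6, 72.4 and 66.99 CPM in KO and 63.4, 24.6 and 48.5 CPM in dermis. Het and KO overlapped for both genes, and Gpr126 covered the same range in dermis as in Het epidermis.

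Another 5 genes encode channel subunits or proteins better known from the nervous system. Nalcn, the sodium leak channel gene (chromosome 14, 123275678 to 123627330), had 0, 4.42 and 0 CPM at E9, 62.7, 29.96 and 32.03 CPM in E13 Het and 227, 185 and 223 CPM in KO. The lowest KO library was well above the highest Het library. Gabrp, which encodes the pi subunit of GABA-A receptors, known mainly from tissues outside the brain such as the uterus (chromosome 11, 33550781 to 33578978), had 2.47, 5.70 and 18.9 CPM at E9, 335, 198 and 1499 CPM in Het and 1051, 532 and 976 CPM in KO. Het replicate 3 stood far above the other Het libraries and above all KO libraries, so the KO range lay within the Het range. Dbc1 (Brinp1), a gene of neurons that slows the cell cycle (chromosome 4, 68761372 to 68954397), had 4.94, 9.75 and 2.18 CPM at E9, 341, 344 and 311 CPM in Het and 256, 215 and 409 CPM in KO. Astn2, a gene of glial-guided neuron migration (chromosome 4, 65380803 to 66404537), had 3.86, 15.1 and 24.3 CPM at E9, 252, 269.9 and 191 CPM in Het and 244, 182 and 288 CPM in KO. The KO libraries of Dbc1 lay on either side of its Het libraries, and those of Astn2 lay below, within and above the Het range. Ppfia3, the gene of the presynaptic scaffold liprin-alpha-3 (chromosome 7, 45339126 to 45367019), had 3.24, 1.66 and 5.10 CPM at E9, 48.1, 32.01 and 33.8 CPM in Het, 38.1, 24.4 and 37.9 CPM in KO and 9.05, 9.33 and 7.52 CPM in dermis. The 10 neuron markers summed to 48.1 to 97.1 CPM at E9, 2.02 to 35.9 CPM in E13 Het, 112 to 195 CPM in KO and 147 to 196 CPM in dermis, with none of the 10 at 0 in all libraries of an epidermal group. That sum moved with Nalcn between Het and KO, and its part in the values of these 5 genes was not tested.

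Among the cytoskeletal and membrane genes, Svil encodes supervillin, an actin and myosin II binding protein of the cell cortex (chromosome 18, 4920467 to 5119293). It had 149, 114 and 151 CPM at E9, 1338, 1196 and 1079 CPM in E13 Het, 1211, 1028 and 960.3 CPM in KO and 147, 70.5 and 96.3 CPM in dermis. The E13 epidermal groups overlapped, and the dermal range overlapped that of E9 epidermis. Anxa1, the gene of the phospholipid-binding annexin A1 (chromosome 19, 20373434 to 20390671), had 6.17, 6.26 and 0 CPM at E9, 146, 81.6 and 459 CPM in Het and 216, 129 and 52.8 CPM in KO. As for Gabrp, Het replicate 3 was the highest library. Ptrf, whose product cavin-1 coats caveolae (chromosome 11, 100956736 to 100970617), had 4.94, 8.83 and 20.6 CPM at E9, 219, 179 and 325 CPM in Het and 143, 111 and 111 CPM in KO. KO was lower in every library, and dermis, at 243, 155 and 184 CPM, overlapped Het. Rhbdl3, of the rhomboid family (chromosome 11, 80300471 to 80355986), had 3.70, 3.31 and 4.86 CPM at E9, 53.1, 46.5 and 54.2 CPM in Het and 35.5, 35.3 and 20.2 CPM in KO, the last again lower throughout. Reep6, the gene of a protein that shapes the endoplasmic reticulum (chromosome 10, 80329997 to 80336441), had 2.47, 3.86 and 3.16 CPM at E9, 34.2, 21.6 and 42.9 CPM in Het and 33.5, 36.05 and 26.97 CPM in KO, with overlap.

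The 2 metabolic genes were Cpt1a, whose product controls fatty acid entry into mitochondria (chromosome 19, 3322326 to 3385735), and Bdh1, which encodes a ketone body dehydrogenase (chromosome 16, 31422297 to 31458901). Cpt1a had 2.31, 1.47 and 0 CPM at E9, 65.8, 32.01 and 80.9 CPM in Het and 129, 105 and 130.4 CPM in KO, all KO libraries being higher. Bdh1 had 4.01, 11.4 and 4.61 CPM at E9, 93.6, 83.3 and 78.2 CPM in Het and 74.9, 61.8 and 92.2 CPM in KO, with overlap. In dermis Cpt1a stood at 42.7, 29.1 and 28.7 CPM, overlapping the lowest Het library, and Bdh1 at 19.1, 11.8 and 23.9 CPM, below Het throughout.

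The comparison of KO with Het epidermis at E13 sets the levels of the 2 genotypes side by side. The rule used these same 6 libraries. Every KO and every Het library had to reach 20 CPM and 4 times the highest E9 level. This kept out genes below these limits in either group, so a lack of large falls or rises is in part set by that choice. None of the 27 genes passed the test. Its fit also held the 3 E9 libraries, where the rule had required low levels, so their spread enters the standard errors. The median coefficient of variation (SD over mean) of the 27 genes was 71.3% over E9, 26.99% over Het and 22.4% over KO libraries. The count of 0 is thus not free of the values that the rule used. Cxcl14 came nearest, with a mean of 2143 ± 595 CPM in KO against 1022 ± 57.3 CPM in Het (SD, n = 3 each), a log2 fold change of 1.01 ± 0.25 (standard error) and an adjusted p of 0.0729 in edgeR's quasi-likelihood test. Nalcn had the largest positive log2 fold change, 2.31 ± 0.75 (adjusted p 0.241 in edgeR), from 41.6 ± 18.4 CPM in Het to 212 ± 23.4 CPM in KO. On the other side stood Bcl11a at -1.43 ± 0.52 (adjusted p 0.292 in edgeR), Pcdh10 at -1.42 ± 0.45 (0.161), Adamtsl1 at -1.34 ± 0.47 (0.275) and Ptrf at -1.05 ± 0.40 (0.310).

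**Figure D3:**
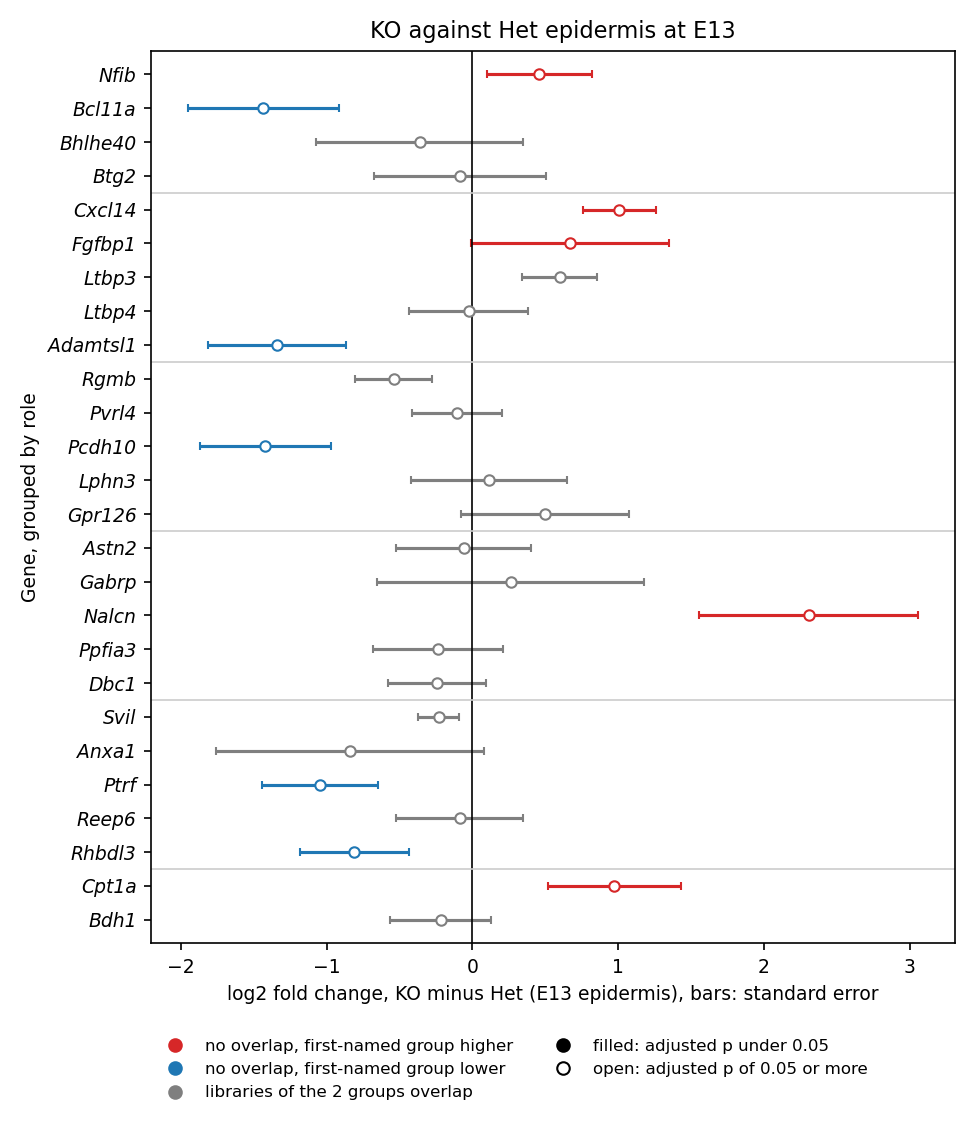
log2 fold change of KO against Het epidermis at E13 (x axis, bars are standard errors from edgeR) for 26 of the 27 genes (y axis, grouped by role), coloured by whether the 3 KO and 3 Het libraries overlap. All points are open because no gene passed an adjusted p of 0.05, and they run from -1.43 (Bcl11a) to 2.31 (Nalcn).

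Of 13052 genes tested, edgeR called 109 higher (0.835%) and 178 lower (1.36%) in KO, and of the 27 genes 0 in either direction. At an unadjusted p under 0.05 there were 8 of the 27: Cxcl14, Ltbp3 and Nalcn higher, and Adamtsl1, Bcl11a, Pcdh10, Ptrf and Rhbdl3 lower. Of all genes tested, 5.13% were higher and 6.32% lower at that limit. DESeq2 called Cxcl14 higher and Pcdh10 lower, where it called 2.85% of all genes higher and 3.6% lower. limma voom with quality weights called 3 higher (Cpt1a, Ltbp3 and Nalcn) and 5 lower (Adamtsl1, Bcl11a, Pcdh10, Ptrf and Rgmb), against 2.08% and 2.95% of all genes. A fit of the 2 groups alone, without the E9 libraries, called Cxcl14 and Nalcn higher and Adamtsl1 and Bcl11a lower. It called 0.74% of all genes higher and 1.21% lower. Raw library totals called Cxcl14 higher, as they did 1.03% of all genes, and so did the fit without KO replicate 2 (adjusted p 0.0184 in edgeR), which called 0.638% higher. The count of 0 was thus not shared by every tool and setting, and a missed threshold does not show that levels were alike. All 3 KO libraries were above all 3 Het libraries for 5 genes (Cpt1a, Cxcl14, Fgfbp1, Nalcn and Nfib), which is 18.5% of the 27 where 12.3% of all genes tested were so placed. For 5 genes all KO libraries were lower (Adamtsl1, Bcl11a, Pcdh10, Ptrf and Rhbdl3), 18.5% against 8.11%. The other 17 overlapped. The genes tested were not limited to those with at least 20 CPM in every library, as the 27 were. These shares therefore set genes of unlike level side by side. The median log2 fold change of the 27 was -0.11, against 0.03 over all genes tested. Of the 27, 21 lay within 1 log2 unit of 0, which the rule in part set, and the share over all genes was not counted. The dermal marker sum was higher in KO than in Het libraries except for KO replicates 1 and 3 against Het replicate 2, and the simple epithelium sum was higher in every KO library. Their part in these differences was not tested.

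The comparison of Het epidermis with Het dermis at E13 asks which of the genes mark the epithelium. The rule did not use the dermal libraries, but its floor required a high level in Het epidermis, which favours the direction higher in epidermis. Ribosomal RNA was removed from the epidermal samples while the dermal ones were selected with oligo(dT), so tissue and preparation cannot be told apart. Most of the genes were higher in epidermis, and Gabrp, Pvrl4 and Fgfbp1 had almost no counts in dermis. Gabrp averaged 677 ± 715 CPM in Het epidermis against 0.101 ± 0.175 CPM in dermis (SD, n = 3 each), from 6 dermal counts (log2 fold change 12.39 ± 1.40, adjusted p 0.000815 in edgeR). Pvrl4 averaged 158 ± 71.7 against 0.185 ± 0.321 CPM (9.42 ± 1.02, adjusted p 0.000676 in edgeR). Fgfbp1 averaged 47.6 ± 3.95 against 0.197 ± 0.341 CPM (7.53 ± 1.36, adjusted p 0.00552 in edgeR). Few dermal counts lie behind these 3 changes, and the Het libraries of Gabrp spread from 198 to 1499 CPM. All 3 changes moved with single libraries. Gabrp was 10.999 without Het replicate 3, 15.86 without dermis replicate 1 and 11.53 without dermis replicate 3. Pvrl4 was 13.72 and 8.60 without dermis replicates 1 and 3, and Fgfbp1 was 12.21 and 6.73 without dermis replicates 2 and 3. These refits kept the calls of all 3 genes, but limma voom did not call Gabrp (adjusted p 0.387).

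Genes with a clear dermal level differed less. Anxa1, at 2.12, 2.13 and 7.07 CPM in dermis, had a log2 fold change of 5.45 ± 0.87 (adjusted p 0.00328 in edgeR), which was 4.41 without Het replicate 3 and 6.26 without dermis replicate 3, and which limma voom did not call (0.156). Reep6, at 2.33, 2.66 and 1.53 CPM in dermis, had 3.44 ± 0.52 (0.00165), and Nalcn, at 6.32, 2.13 and 2.94 CPM, 3.04 ± 0.48 (0.00205). The smallest adjusted p values were those of Dbc1 (2.46 ± 0.16, adjusted p 3.6e-05 in edgeR; 47.3, 37.9 and 47.6 CPM in dermis), Svil (3.11 ± 0.21, 4.0e-05) and Astn2 (2.56 ± 0.19, 6.5e-05; 35.4, 24.4 and 29.8 CPM). Rhbdl3, at 18.3, 4.37 and 5.93 CPM in dermis, was 2.06 ± 0.47 (0.0107), and 2.84 without dermis replicate 1. Cxcl14 (1.81 ± 0.16, 0.000151), Bcl11a (1.78 ± 0.25, 0.00117) and Bdh1 (1.79 ± 0.26, 0.00125) were higher by similar amounts. Among the smallest called differences were Rgmb (0.85 ± 0.17, 0.00570), Nfib (0.89 ± 0.21, 0.0137) and Lphn3 (0.72 ± 0.24, 0.0491). Next to them stood Bhlhe40 (1.23 ± 0.42, 0.0488) and Ppfia3 (1.65 ± 0.35, 0.00762). Btg2 alone went the other way, at -2.39 ± 0.30 (adjusted p 0.000685 in edgeR), with 109 ± 37.2 CPM in dermis and 27.7 ± 7.51 CPM in Het epidermis. Calls were lost without a single library for 3 genes. Bhlhe40 was not called without Het replicate 1 or 2 or any 1 dermal library (adjusted p up to 0.122 in edgeR), Lphn3 without Het replicate 2 or 3 or dermis replicate 2 or 3 (up to 0.155), and Nfib without dermis replicate 3 (0.0598).

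**Figure D4:**
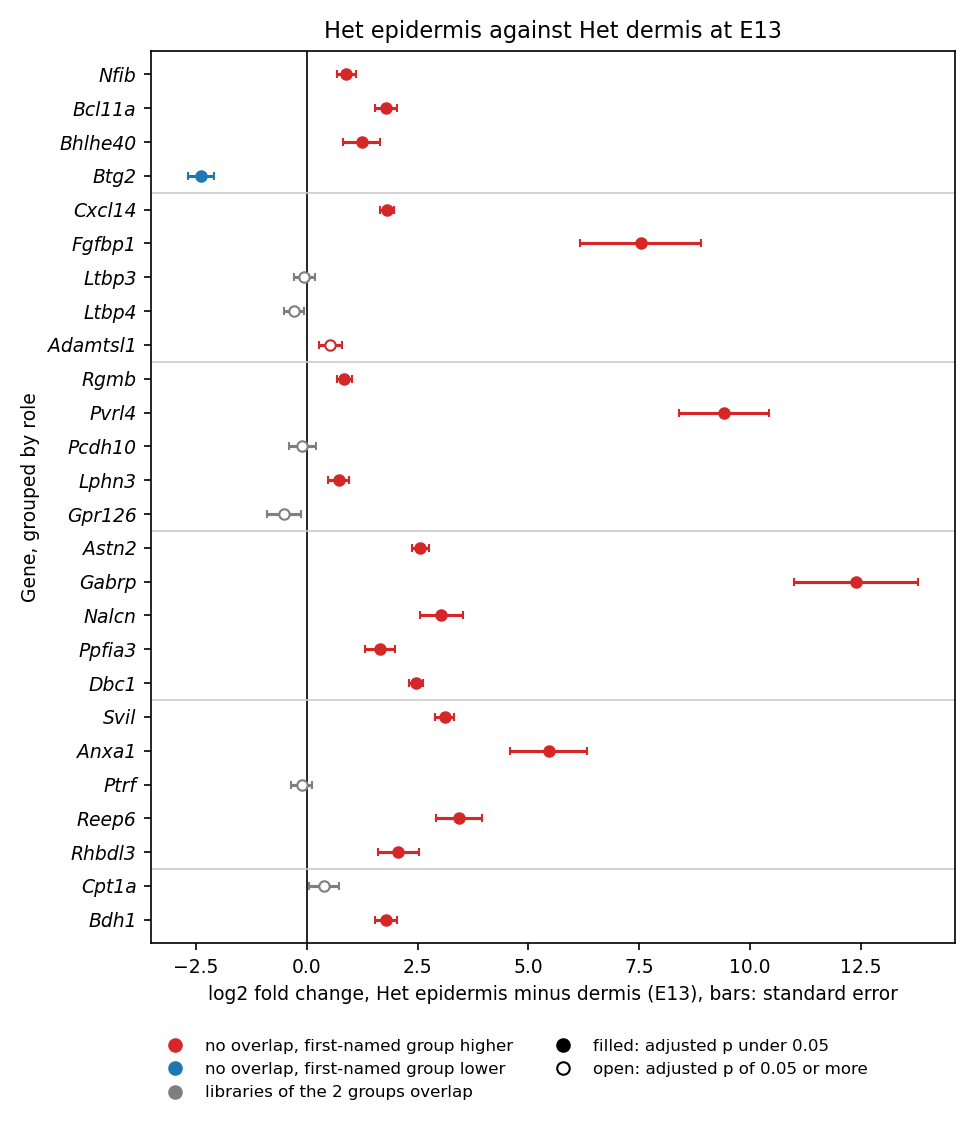
log2 fold change of Het epidermis against Het dermis at E13 (x axis, bars are standard errors from edgeR) for 26 of the 27 genes (y axis, grouped by role), filled where the adjusted p was under 0.05 and coloured by whether the 3 libraries of each group overlap. Gabrp (12.39), Pvrl4 (9.42) and Fgfbp1 (7.53) lie farthest right, and Btg2 (-2.39) is the only called gene left of 0.

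In this fit 12975 genes were tested, of which 2140 (16.5%) were called higher and 2364 (18.2%) lower in Het epidermis. These too were not limited to genes with at least 20 CPM in every Het library. Of the 27 genes, 19 were higher (70.4%) and 1 lower (3.7%), and 15 of these 20 were called in every alternative run. Overlap was read from CPM, without the scaling between libraries that the fit used. The ribosomal precursor Rn45s took 11.2% to 30.7% of dermal and 4.43% to 4.96% of Het epidermal gene counts, which lowers the CPM of other genes more in dermis. The libraries did not overlap for 20 genes higher in epidermis (74.1%, against 34% of all genes tested) and for 1 lower (3.7%, against 20.7%). The gene added by this count was Adamtsl1 (0.53 ± 0.27, adjusted p 0.157 in edgeR). The median log2 fold change of the 27 was 1.78, against -0.13 over all genes tested. For the 6 genes whose libraries overlapped, the log2 fold changes were 0.38 ± 0.34 for Cpt1a, -0.52 ± 0.38 for Gpr126, -0.06 ± 0.24 for Ltbp3, -0.29 ± 0.22 for Ltbp4, -0.10 ± 0.31 for Pcdh10 and -0.12 ± 0.23 for Ptrf, with adjusted p from 0.329 to 0.878 in edgeR. With raw library totals the median of all genes moved by 0.44 and the share of higher calls from 47.5% to 68.6%, and Ltbp3, Ltbp4, Pcdh10 and Ptrf changed sign. The highest dermal marker sum of a Het epidermal library was 9.20% of the lowest dermal one. This comparison and that of KO with Het share the Het libraries.

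Spread between libraries was part of the pattern. The median coefficient of variation of the 27 genes was 26.99% over the Het libraries, against 18.2% for 6305 genes with at least 20 CPM in each of them, and 22.4% over the KO libraries, against 17.9% for 6517 genes. Gabrp and Anxa1 had the widest Het spread, with means of 677 ± 715 and 229 ± 202 CPM (SD, n = 3). In both, Het replicate 3 was the highest. The 13 simple epithelium markers summed to 1932, 1314 and 3732 CPM in Het replicates 1, 2 and 3, to 5103, 3762 and 4436 CPM in KO and to 2547 to 2879 CPM at E9. The sum was highest in the same Het library and near the lowest KO library, and its part in the Gabrp and Anxa1 values was not tested. Without Het replicate 3 the log2 fold change of KO against Het was 0.21 for Anxa1, where it was -0.84 ± 0.92 with all libraries, and neither was called. For Gabrp it was 1.64 without that library and 0.26 ± 0.92 with all, and again neither was called.

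**Figure D5:**
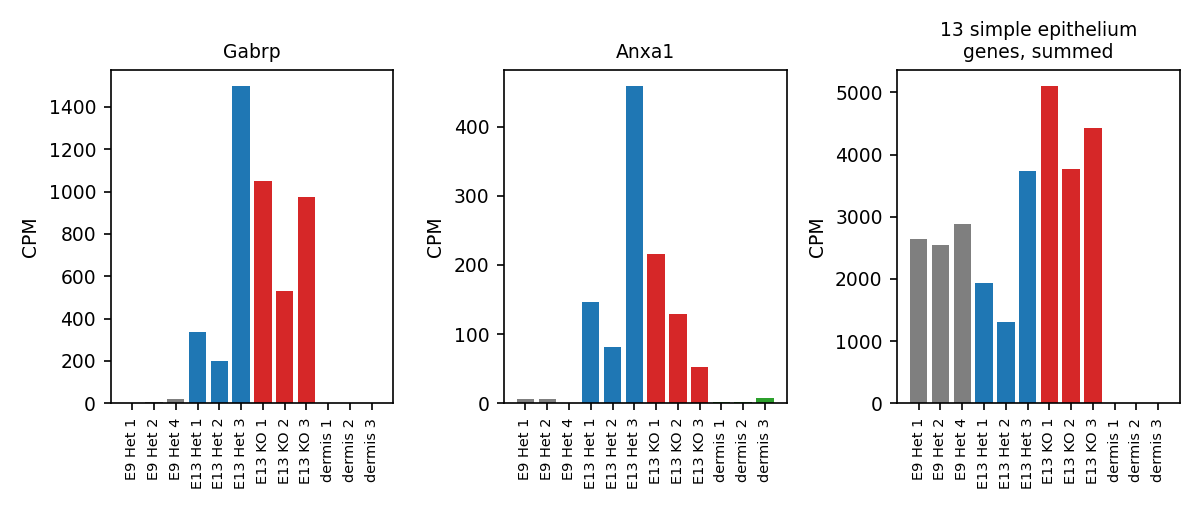
CPM (y axes, linear from 0) of Gabrp and Anxa1 and the summed CPM of 13 simple epithelium markers in each of the 12 libraries (x axes), coloured by group as grey E9, blue E13 Het, red KO and green dermis. Het replicate 3 has the highest bar of the Het group in all 3 panels, at 1499 CPM for Gabrp and 459 CPM for Anxa1, and the dermal bars are at or near 0.

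Gene lists were counted in the same fits, without a test of any list. Of all genes tested, 0.835% were called higher and 1.36% lower in KO, with a median log2 fold change of 0.03. Against dermis 16.5% were higher and 18.2% lower, with a median of -0.13. Counts near these shares say nothing particular about a list. Of 13 simple epithelium markers, KO against Het had 1 higher (Epcam, 1.19 ± 0.14, adjusted p 0.000310 in edgeR) and 0 lower with a median log2 fold change of 0.97, and Het against dermis had 12 of 12 tested higher with a median of 9.31. Of the transcription factors of patterning and late development (Nfib among them), 2 of 59 tested were higher and 2 lower in KO (median 0.23), and 16 of 54 were higher and 12 lower in Het epidermis than in dermis (median -0.47). Of the matrix proteins, proteases and inhibitors (Adamtsl1 among them), 1 of 46 was higher and 4 lower in KO (median 0.09), and 4 of 47 were higher and 28 lower against dermis (median -1.87). The S100, annexin and galectin list of Anxa1 had 0 higher and 1 lower of 18 in KO, and 3 higher and 6 lower of 18 against dermis (median -0.39). The cell cycle inhibitors, which include Btg2, had 2 higher and 1 lower of 19 in KO (median -0.12) and 2 higher and 8 lower of 20 against dermis (median -0.53). In the dissociation stress list, also with Btg2, edgeR called 0 of 26 in KO against Het (median -0.15), and 3 were higher and 16 lower of 27 against dermis (median -2.29). Btg2 was lower in Het epidermis than in dermis, as were most called genes of both its lists.

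Relatives of the 27 genes, chosen after values were seen, mostly did not meet the rule. Their calls are from the same fits, without the alternatives. Of 4 NFI genes only Nfib did. Nfia had 12.1, 36.8 and 20.04 CPM in E13 Het and 51.2, 85.6 and 55.4 CPM in KO, and was lower in Het epidermis than in dermis (-2.27 ± 0.41, adjusted p 0.00367 in edgeR), the opposite direction to Nfib. Nfic and Nfix were on the dermal side too (-2.50 ± 0.17 and -3.39 ± 0.58, adjusted p 4.6e-05 and 0.00415). Both BCL11 genes met the limits, though Bcl11b is among the names dropped, and Bcl11b was also lower in every KO library (648, 608 and 506 CPM in Het, 339.5, 309 and 401 CPM in KO, log2 fold change -0.80 ± 0.24, adjusted p 0.140 in edgeR). Among the latent TGF-beta binding proteins, Ltbp1 was at 67.9, 82.1 and 90.3 CPM already at E9 and was the member that rose in KO (1.39 ± 0.31, adjusted p 0.0391 in edgeR). The nectins parted as well. Pvrl1 fell in KO (-2.46 ± 0.23, adjusted p 3.0e-05 in edgeR), Pvrl3 and Pvrl2 rose (1.41 ± 0.25 and 1.13 ± 0.24, adjusted p 0.00755 and 0.0213), and Pvrl4 was at -0.11 ± 0.31 (adjusted p 0.958). Unc79, whose product is a subunit of the NALCN channel complex, had 0, 1.41 and 0.895 CPM in Het and 17.5, 26.5 and 18.1 CPM in KO (4.58 ± 1.58, adjusted p 0.211 in edgeR), all KO libraries being higher as for Nalcn itself. Unc80 and Fam155a, also counted with that complex, were nearly without counts in both groups. Unc80 had 0, 0 and 0.895 CPM in Het and 0, 0.441 and 0 CPM in KO, and Fam155a 0, 0 and 0 CPM and 0, 0.294 and 0 CPM.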

How the data were processed

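RNA of 12 libraries was analysed, 3 per group. The deposited files hold whole-number counts per gene symbol, with summary lines appended. TopHat2, Bowtie2, HTSeq and mm10 are named, without versions, in the submitters' processing notes. Per the labels, rRNA was removed from epidermal samples and dermal ones were selected with oligo(dT). The summary lines took 48.8% to 63.8% of epidermal and 20.2% to 21.6% of dermal entries and were left out. The ribosomal precursor Rn45s took up to 30.7% of dermal gene counts. The ATAC and ChIP libraries were not analysed here.

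CPM are counts over the gene total, and overlap of libraries was read from them without TMM scaling. KO against Het was tested in 1 fit of the 9 epidermal libraries and Het epidermis against dermis in a fit of those 6, with edgeR 4.0.16 in R 4.3.3 (filterByExpr, TMM, robust quasi-likelihood F test, group only) calling genes at 0.05 after Benjamini-Hochberg adjustment over every gene tested. Residual degrees of freedom were 6 and 4. Standard errors are the size of the log2 fold change divided by the root of F. Replicates differed by more than sampling noise (chi-square over its degrees of freedom of 15.4 to 227). The procedure was run on simulated data whose spread was set below that of these fits (common coefficients of variation of 0.571 and 0.506). That run therefore does not show how many real changes would be called here.

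The members, lists, roles and families were chosen with earlier results of these data known. The rule for named genes took those with the highest ratios or levels, called genes with the largest and smallest changes, genes in a list and those nearest the limits, and other members are named for completeness. Of the 27 genes, 1 enters every count and sum but is not reported here by name. Annotation and promoters come from RefSeq GRCm38.p6, the assembly that mm10 also names, with Dbc1, Gpr126, Lphn3, Ptrf and Pvrl4 matched by older symbols. The symbol Dbc1 matched 2 RefSeq genes. The first, Brinp1, was used, and the position and promoter window given for Dbc1 rest on that choice. Alternatives were DESeq2 1.42.0, limma 3.58.1 voom with quality weights, RLE size factors, raw totals, no filter, a filter of 5 CPM, leaving out each replicate, a replicate block, the 2 groups alone or all 12 libraries in 1 fit, leaving out Rn45s, and other limits of the rule. Added after seeing the data was leaving out E13 Het replicate 1 and KO replicate 3, the E13 epidermal libraries with fewest genes detected (10765 and 11275).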

Additional observations from a re-analysis of the deposited data

How the results depend on the processing

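The number of genes chosen, 27, was 42 at a ratio of 3, 16 at a ratio of 6, 38 and 18 at floors of 10 and 40 CPM, 26 with TMM-scaled totals (Rhbdl3 lost) and 25 without Rn45s (Lphn3, Pvrl4 and Rhbdl3 lost, Tmem176b gained). Leaving out 1 replicate, which by construction can only add genes, gave 28 to 41, the highest without E9 replicate 4.

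For KO against Het, 287 genes were called, 824 with DESeq2, 656 with limma voom and 182 (without KO replicate 1) to 348 with a replicate left out. Of the 27 genes, those called higher, 0, were 1 with DESeq2, 3 with voom, 1 with raw totals, 2 in the 2 groups alone and 0 to 1 with a replicate left out. Those called lower, 0, were 1, 5 and 2 with DESeq2, voom and the 2 groups alone. Signs turned for small changes: with voom Bhlhe40 (0.0066), Ltbp4 (0.0016), Pvrl4 (0.25) and Reep6 (0.18), with raw totals Ltbp4 (0.024), and without the 2 libraries with fewest genes Bhlhe40 (0.31), Gabrp (-0.19), Ltbp4 (0.17), Pvrl4 (0.10) and Reep6 (0.019). The cause was not tested. With a replicate left out the ranges crossed 0 for Anxa1 -1.41 to 0.21, Astn2 -0.23 to 0.099, Bhlhe40 -0.91 to 0.13, Btg2 -0.29 to 0.17, Gabrp -0.18 to 1.64, Ltbp4 -0.41 to 0.19, Pvrl4 -0.44 to 0.13 and Reep6 -0.32 to 0.18.

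Against dermis, 4504 genes were called, and 2934 (without dermis replicate 3) to 5269 with a replicate left out, when 16 to 18 of the 27 were higher, against 19. Over all genes, 1455 (without dermis replicate 3) to 2431 (without Het replicate 1) were then higher, against 2140. Raw totals turned Ltbp3 (0.38), Ltbp4 (0.13), Pcdh10 (0.32) and Ptrf (0.31). With a replicate left out the ranges crossed 0 for Ltbp3 -0.31 to 0.12, Pcdh10 -0.35 to 0.29 and Ptrf -0.42 to 0.032.

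Replicate numbers are shared by groups. The deviations of same-numbered Het and KO libraries had correlations of -0.05, 0.23 and -0.05, that of replicate 2 being the highest of all Het and KO pairs. Replicate 2 also had the most genes detected in both groups (16016 in Het and 16200 in KO). Not every library correlated best with its own number. With the replicate block, 286 genes and 0 of the 27 were called in KO against Het, and 3464 genes, 17 of the 27 higher and 1 lower, against dermis. Over all genes, 1627 were higher and 1837 lower in Het epidermis than in dermis with that block. Bhlhe40 and Lphn3 were then not called. With common coefficients of variation of 0.571 and 0.506 and 3 libraries a group, a miss says little about genes with few counts.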
